A study of Mus musculus with 2 samples.

Results

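Potassium channel genes were taken as every gene row whose symbol starts with Kcn, which gave 99 of 31053 gene rows. The set holds the pore-forming subunits of the channels, their auxiliary subunits and 5 noncoding RNAs named after neighbouring channel genes. Counts came from single-nucleus RNA sequencing of the paraventricular hypothalamus (PVH) of 17 mice aged 4 weeks, pooled in 1 droplet library. Sim1-Cre and the reporter Sun1-GFP were present in all 17, so the nuclei sorted for GFP came from cells with a history of Sim1 promoter activity. Of the mice, 4 also carried Otp fl/+, a floxed allele of the PVH transcription factor gene Otp that Sim1-Cre can recombine, 6 carried Otp Q153R/+, and 7 had no Otp alteration. Antibody hashtags mark 3 pools, named KD, Q153R and Ctrl in the deposited feature names. KD was matched to Otp fl/+ by elimination, since the other 2 names match the other genotypes.

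Potassium channels let potassium leave the cell and so set the resting potential, the shape of the action potential and the firing rate of a neuron. Voltage-gated channels of the Kv families open on depolarization, calcium-activated channels (BK and SK) open after calcium entry, inward rectifiers (Kir) include the G-protein-gated GIRK channels that inhibitory receptors open, and K2P channels carry leak current. Auxiliary subunits such as the KChIPs, which bind Kv4 pores, and the BK beta subunits change gating and surface expression. Magnocellular oxytocin and vasopressin neurons of the PVH are known for a strong A-type current, carried by Kv4 channels, and for calcium-activated potassium currents that shape their bursts.

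Neurons were assigned to 6 classes by unique molecular identifiers (UMIs, 1 per captured transcript) of a peptide or transmitter gene: at least 10 Oxt (oxytocin), 10 Avp (vasopressin), 2 Crh, 2 Trh (the releasing hormones of the adrenal and thyroid axes), 4 Sst (somatostatin) or 3 UMIs over Gad1, Gad2 and Slc32a1 (GABA). A pool was assigned where exactly 1 tag reached its minimum, which was 61 UMIs for KD, 37 for Q153R and the highest for Ctrl. This left 4649 neurons with 26660589 UMIs, a median of 5325 per nucleus and a range of 565 to 21844. The classes held 139 Oxt, 210 Avp, 177 Crh, 336 Trh, 261 Sst and 308 GABA nuclei, beside 3218 unclassed neurons. Every class had nuclei in all 3 pools, with 34 nuclei in the smallest sum (Oxt, tag KD). Sim1, the lineage marker, stood at 414 to 919 CPM in the 5 peptide classes and at 431 CPM in unclassed neurons. The GABA class had 110 CPM of Sim1, and within it Sim1 was uneven, at 135 CPM with tag KD, 302 CPM with tag Q153R and 45.5 CPM with tag Ctrl. The class rule used Gad1, Gad2 and Slc32a1, so their levels in it do not check its label. Astrocyte markers summed to 14.8 to 84.1 CPM and oligodendrocyte markers to 38.0 to 57.5 CPM in the 7 neuron groups, against 2908 and 4632 CPM in 174 nuclei left out for their glial markers. Otp itself stood at 75.3 CPM with tag KD, 103 CPM with tag Q153R and 47.5 CPM with tag Ctrl in unclassed neurons. The labels do not say which part of Otp the floxed allele loses, so this level does not check the KD tag.

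The promoters of 4 members on which the class differences below turn are shown because all 4 changed in vasopressin neurons, Kcnip4, Kcnmb4 and Kcnh1 upward and Kcnj3 downward. Each runs 250 bases before to 50 after a RefSeq transcription start on GRCm38.p6, 5′ to 3′ on the gene's strand. Kcnip4 has 2 starts in the RefSeq table, of which the far one lies upstream. Capitals mark the GC box GGGCGG on either strand.
Kcnip4, far start, chr5:49285610-49285909, minus strand: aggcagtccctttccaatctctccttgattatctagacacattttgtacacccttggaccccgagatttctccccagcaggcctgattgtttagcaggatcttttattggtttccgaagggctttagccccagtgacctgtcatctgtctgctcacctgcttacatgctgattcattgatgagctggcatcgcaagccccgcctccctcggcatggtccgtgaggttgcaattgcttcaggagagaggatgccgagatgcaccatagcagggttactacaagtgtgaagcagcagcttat
Kcnip4, near start, chr5:48599633-48599932, minus strand: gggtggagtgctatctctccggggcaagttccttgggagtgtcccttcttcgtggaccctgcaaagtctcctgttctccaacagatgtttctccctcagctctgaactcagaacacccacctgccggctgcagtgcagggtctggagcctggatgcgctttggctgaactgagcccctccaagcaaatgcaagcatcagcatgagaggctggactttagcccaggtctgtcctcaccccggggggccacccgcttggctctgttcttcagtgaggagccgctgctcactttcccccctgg
Kcnmb4, chr10:116473474-116473773, minus strand: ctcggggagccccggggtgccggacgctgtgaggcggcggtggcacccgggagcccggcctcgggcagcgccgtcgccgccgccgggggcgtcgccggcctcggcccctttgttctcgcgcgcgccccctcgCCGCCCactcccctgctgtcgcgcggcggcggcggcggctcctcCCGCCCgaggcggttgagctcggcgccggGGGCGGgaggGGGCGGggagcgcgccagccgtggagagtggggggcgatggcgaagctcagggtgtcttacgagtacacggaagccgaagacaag
Kcnh1, chr1:192190527-192190826, plus strand: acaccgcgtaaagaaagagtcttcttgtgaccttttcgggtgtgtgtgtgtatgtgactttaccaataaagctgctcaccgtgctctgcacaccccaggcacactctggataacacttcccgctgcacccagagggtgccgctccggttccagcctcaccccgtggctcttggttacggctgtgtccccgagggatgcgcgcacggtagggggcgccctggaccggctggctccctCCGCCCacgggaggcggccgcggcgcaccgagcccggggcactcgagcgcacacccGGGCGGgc
Kcnj3, chr2:55435720-55436019, plus strand: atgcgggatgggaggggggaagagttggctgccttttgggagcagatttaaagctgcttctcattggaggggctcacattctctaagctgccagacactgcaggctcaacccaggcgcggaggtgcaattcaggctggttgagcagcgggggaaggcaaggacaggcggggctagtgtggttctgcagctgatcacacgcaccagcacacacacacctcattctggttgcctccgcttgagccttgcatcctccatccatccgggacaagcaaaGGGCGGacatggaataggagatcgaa
The Kcnmb4 promoter held 4 GC boxes, that of Kcnh1 2, that of Kcnj3 1 and neither Kcnip4 start any. GC boxes were present in 47.4% of 97 RefSeq promoters of 72 members and in 35.7% of all 32851 promoters of the same length, and the median GC content was 58% and 52.7% in the same sets. The core ACGTG, which bHLH-PAS factors such as SIM1 bind, was in 17.5% of member promoters and 19.6% of all. Neither it nor TGACGTCA, ATGCAAAT or TAATTA occurred in the promoters shown, searched on both strands. RNA counts from nuclei do not show which start was used.

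Of the 99 members, 94 had a UMI in neurons, and Kcnk15, Kcne1l, Kcnk16, Kcnj1 and Kcnj15 had none. Levels are given as CPM, the UMIs of a gene scaled to 1000000 gene UMIs. For differences between classes, UMIs were summed in 7 neuron groups and 3 pools, and edgeR's quasi-likelihood test was run on all 7915 genes that passed its filter on low counts, with Benjamini-Hochberg adjustment over all of them and pool as a block. Of the members, 45 passed that filter, the lowest with 220 UMIs, and 54 did not, the highest of which was Kcnh2 with 255 UMIs. A gene rose or fell in a class where its adjusted p against the mean of the other 6 groups was under 0.05. As some of those 6 groups stand far apart themselves, the contrast with unclassed neurons alone, chosen after the data were seen, is given beside it. The pools differ in genotype and share 1 droplet library. With pool as a block, the p-values rest on the scatter of the 7 groups over the 3 pools that remains after pool shifts. For each gene 1 spread is shared by all groups, and it does not measure the spread between mice.

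Per 100 kb of gene span the tested members ranged over all neurons from 21.6 CPM for Kcnh8 to 869 CPM for Kcnq1ot1, an imprinted noncoding RNA. Kcnip4, a KChIP gene that spans 1135 kb, followed with 743 CPM per 100 kb and Kcnd2, a Kv4 pore gene, with 579 CPM per 100 kb. The order among them also depends on how many reads introns gave, and the sources used here do not say whether introns were counted. Members together took 4.14% of UMIs in Avp neurons, 2.73% in Crh, 2.37% in Oxt, 1.81% in Trh, 1.74% in GABA, 1.66% in Sst and 1.93% in unclassed neurons. Kcnip4 alone made up 2.95% of UMIs in Avp neurons and 0.744% in unclassed neurons. Without Kcnip4 the shares were 1.18% in Avp neurons and 1.67% in Crh neurons, against 1.19% in unclassed neurons.

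**Figure D1:**
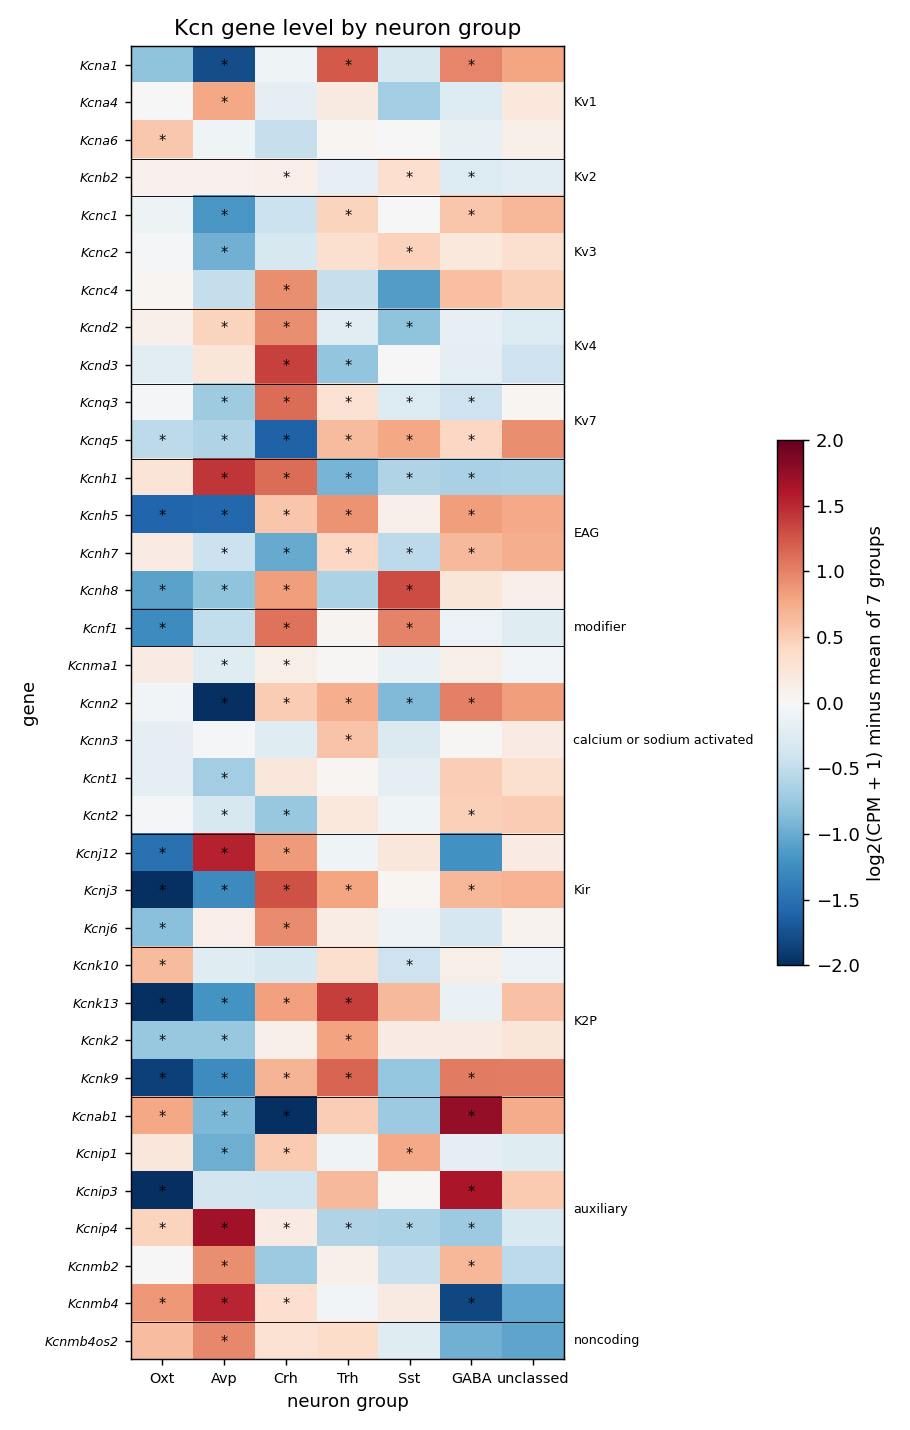
Level of the 35 Kcn genes called in at least 1 class (rows, by family) in 7 neuron groups (columns), as log2(CPM + 1) of the mean over 3 pools minus the mean of the 7 groups, red for higher and blue for lower, with colours clipped at 2 in either direction. Stars mark an adjusted p under 0.05 against the mean of the other 6 groups, which fall most often in Avp (26 genes) and Crh (23 genes).

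Of the 45 tested members, 35 rose or fell in at least 1 class, 14 in at least 4, and 10 in none. Among the last were the GIRK gene Kcnj9, the K2P genes Kcnk1 and Kcnk3, the auxiliary subunit genes Kcnab2 and Kcnip2, and Kcnq1ot1. Every call went the same way in 3 of 3 pools. The shares of all tested genes called in at least 1, in at least 4 or in no class are not given here. The counts of 35, 14 and 10 thus do not set members apart from other genes. The tested members have more UMIs than other tested genes, with a median of 2164 against 1235 over all 7915, and more UMIs make a given fold easier to call. The calls spread unevenly over the classes, as the map of levels by neuron group shows.

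Vasopressin neurons had the most calls. In them 8 members rose and 18 fell, or 57.8% of those tested, where 21.1% of all tested genes were called, 9.48% higher and 11.6% lower. Of 8 tested auxiliary subunit genes 3 rose and 2 fell. Falls took 4 of 5 calcium- or sodium-activated channel genes, 3 of 6 K2P genes and 3 of 4 EAG-type genes, the fourth of which rose. The median log2 fold change was -0.37 over tested members and 0.01 over all genes tested, and the median absolute value was 0.72 and 0.28. Against unclassed neurons alone 8 members rose and 18 fell, among them 7 of the 8 rises and 16 of the 18 falls, where 22.2% of all genes were called, 9.34% higher and 12.9% lower. Leaving out the KD pool gave 17 calls and leaving out the Ctrl pool 16, with no share of all genes given for these fits.

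Kcnip4 encodes a calcium-binding KChIP subunit of Kv4 channels. Its level in Avp neurons was 27817 CPM with tag KD, 30422 CPM with tag Q153R and 30420 CPM with tag Ctrl. In unclassed neurons it was 7766, 7593 and 7030 CPM with the same tags. No pool of another group came above 15572 CPM, so the Avp class did not overlap the rest. Kcnip4 rose by 1.94 ± 0.09 on the log2 scale (SE, adjusted p = 2.93e-18), and by 1.99 against unclassed neurons.

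Shares in single nuclei were also higher. The median Avp nucleus gave 2.97% of its UMIs to Kcnip4, with quartiles of 2.29% and 3.73%, against a median of 0.528% in unclassed neurons and quartiles of 0.122% and 1.14%. The lowest Avp nucleus had 0.0213%, below the lower quartile of unclassed neurons. The highest unclassed neuron had 4.42%, above the upper Avp quartile, so the ranges overlapped widely. In the left-out nuclei with glial markers Kcnip4 stood at 2445 CPM, against 8436 CPM over all neurons. Kcnip4 (chr5:48389502-49524907, minus strand, GRCm38) overlaps 5730480H06Rik and Gm20700 in the annotation, and reads of overlapping genes may not be separable.

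**Figure D2:**
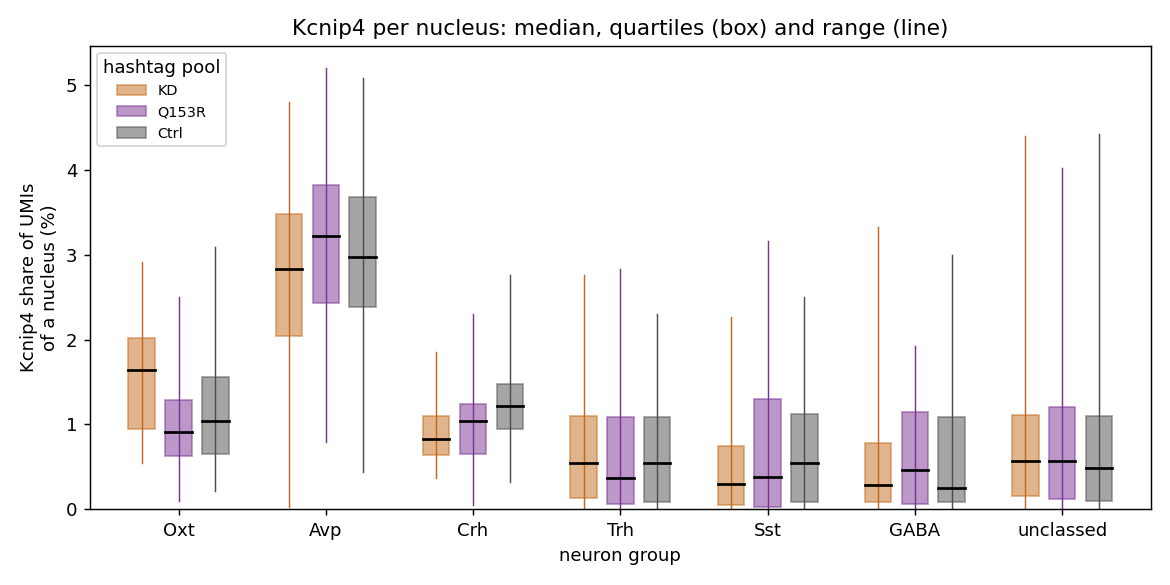
Share of a nucleus's UMIs from Kcnip4 (vertical axis, %) by neuron group and hashtag pool, with the median (black), quartiles (box) and range (line) over nuclei. Medians in Avp neurons were 2.83% to 3.22% in the 3 pools, and no other group's pool median exceeded 1.64%.

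Another KChIP gene, Kcnip1, fell by 1.15 in Avp neurons (adjusted p = 3.19e-07) and by 0.73 against unclassed neurons. The pore genes that KChIP subunits serve had smaller changes than Kcnip4. Kcnd2 averaged 4569 ± 313 CPM in Avp neurons and 2783 ± 60.4 CPM in unclassed neurons (SD, n = 3 pools each), a rise of 0.50 ± 0.09 on the log2 scale (adjusted p = 3.69e-05). Kcnd3, the other tested Kv4 pore gene, averaged 466 ± 29.4 CPM against 295 ± 6.64 CPM. Its log2 fold change was 0.27 against the other 6 groups (adjusted p = 0.104) and 0.66 against unclassed neurons (adjusted p = 0.000555).

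BK channel subunits differed in the same neurons. Kcnmb4 encodes the BK beta subunit found mainly in brain, and it stood at 228, 138 and 177 CPM in Avp neurons with tags KD, Q153R and Ctrl, against 29.4, 29.4 and 30.7 CPM in unclassed neurons. The Avp values lay above every pool of the other groups, and Oxt neurons came next with 135, 127 and 83.4 CPM. Kcnmb4 rose by 1.83 ± 0.16 on the log2 scale in Avp neurons (adjusted p = 1.1e-11) and by 2.59 against unclassed neurons. Kcnmb2, another BK beta subunit gene, rose by 1.09 (adjusted p = 7.12e-06), while the pore gene Kcnma1 fell by 0.30 (adjusted p = 0.0222), a call that was absent against unclassed neurons. The antisense RNA Kcnmb4os2 rose by 1.25 ± 0.42 (adjusted p = 0.0279) on 220 UMIs in all neurons. It overlaps Kcnmb4, and without knowledge of the strand setting reads of the pair cannot be told apart. Its call was lost without the KD pool (adjusted p = 0.129) and without the Ctrl pool (adjusted p = 0.325).

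Among pore genes, 2 more rose by over 1 on the log2 scale in Avp neurons. Kcnh1, an EAG channel gene, stood at 1030, 752 and 822 CPM with tags KD, Q153R and Ctrl, against 224, 209 and 190 CPM in unclassed neurons, and rose by 1.65 ± 0.10 (adjusted p = 3.17e-15). Kcnj12, a strong inward rectifier gene, had 31.8, 46.0 and 21.5 CPM in Avp neurons against 12.8, 14.4 and 9.35 CPM in unclassed neurons, and rose by 1.85 ± 0.33 (adjusted p = 4.24e-05). Kcna4, a Kv1 gene for A-type current, rose by 0.91 (adjusted p = 0.0478), but not against unclassed neurons (0.58, adjusted p = 0.232).

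The falls in Avp neurons covered several families. Kcnn2, an SK channel gene, stood at 22.0, 30.7 and 38.2 CPM with tags KD, Q153R and Ctrl, against 247, 251 and 233 CPM in unclassed neurons, and fell by 2.54 ± 0.25 on the log2 scale (adjusted p = 2.31e-10). Kcnj3, a GIRK subunit gene, had 147, 159 and 115 CPM in Avp neurons against 525, 540 and 584 CPM in unclassed neurons, and fell by 1.51 ± 0.16 (adjusted p = 3.7e-09). Neither gene's Avp values overlapped those of unclassed neurons. Kcna1, a Kv1 pore gene, fell by 2.45 ± 0.65 (adjusted p = 0.00497), a call that was lost without the KD pool (adjusted p = 0.051) or the Ctrl pool (adjusted p = 0.0728). Kcnh5, the closest relative of Kcnh1, fell by 1.89 ± 0.26 (adjusted p = 4.66e-07), so Kcnh1 and Kcnh5 went opposite ways. The K2P genes Kcnk9, Kcnk13 and Kcnk2 fell by 1.57, 1.55 and 0.90. The Kv3 genes Kcnc1 and Kcnc2, whose channels serve fast repolarization, fell by 1.39 and 1.15, and the Kv7 genes Kcnq3 and Kcnq5, whose channels carry M-current, by 0.86 and 0.72.

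**Figure D3:**
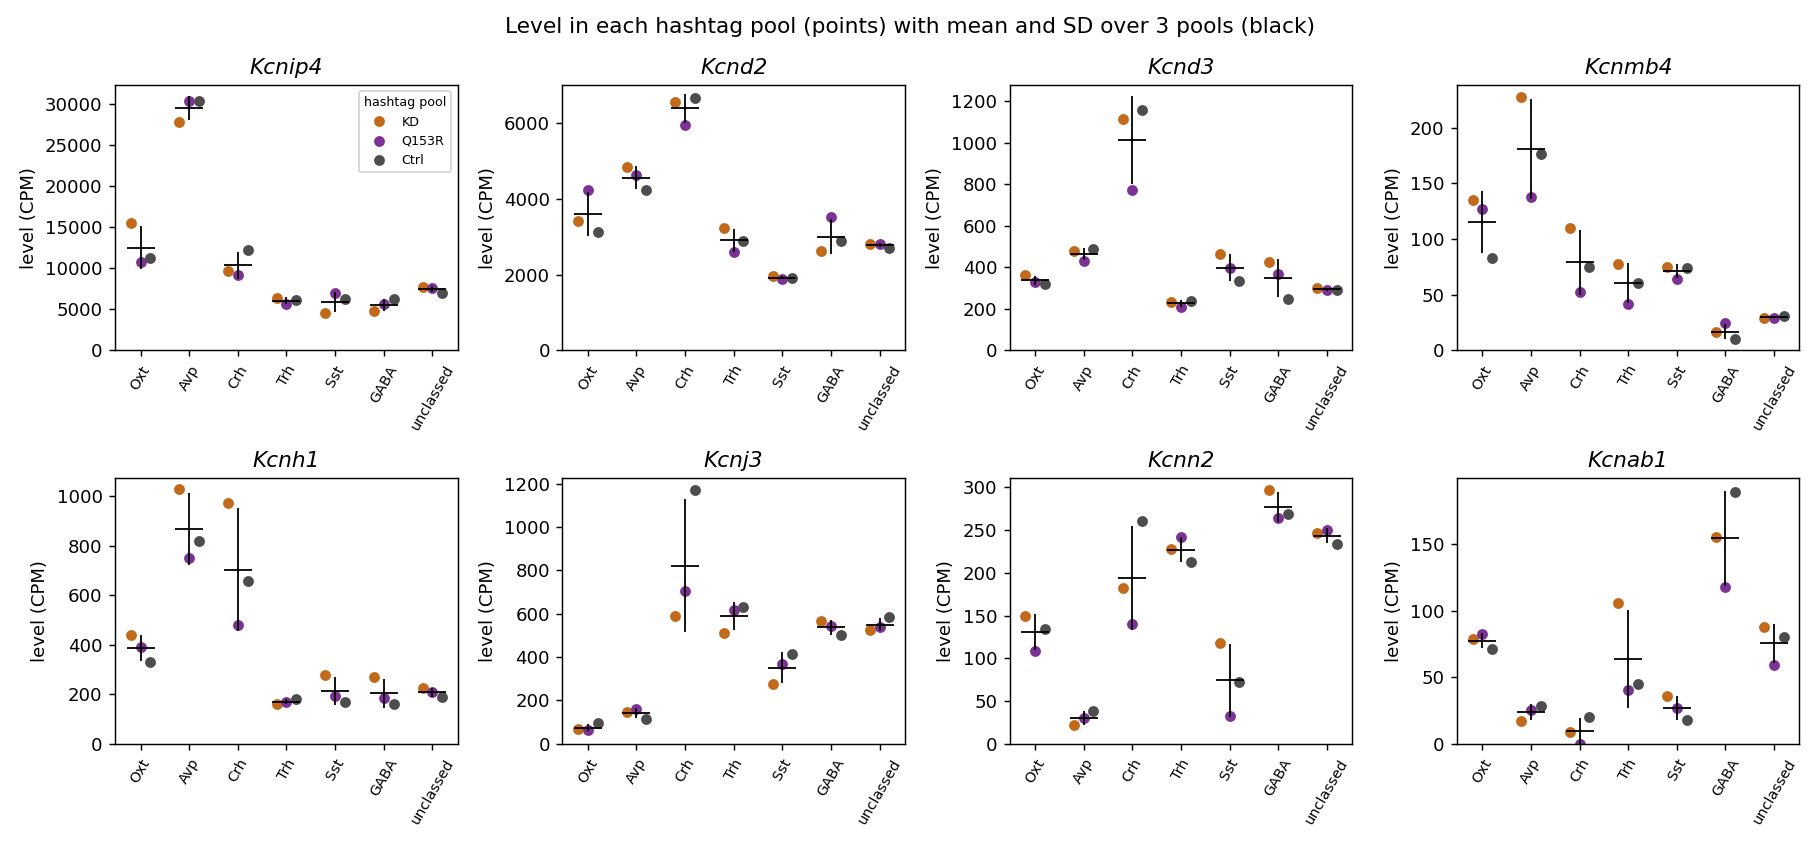
Level in CPM (vertical axes from 0) of 8 Kcn genes in 7 neuron groups, with 1 point per hashtag pool and black bars for mean and SD over 3 pools. Kcnip4 stood at 27817 CPM or more in all 3 pools of Avp neurons, while Kcnj3 was below 160 CPM in every pool of Oxt and Avp neurons.

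In oxytocin neurons the GIRK genes Kcnj3 and Kcnj6 and the K2P genes Kcnk13, Kcnk9 and Kcnk2 fell, while Kcnk10 and the BK beta gene Kcnmb4 rose. Of the tested members, 5 rose and 11 fell, or 35.6%, where 16.7% of all tested genes were called, 8.73% higher and 8% lower. Among the falls were 3 of 4 tested Kir genes and 3 of 6 tested K2P genes. Against unclassed neurons alone 6 members rose and 17 fell, among them 3 of the 5 rises and 10 of the 11 falls, where 16.8% of all genes were called, 7.81% higher and 9.03% lower. Leaving out the Ctrl pool gave 10 calls, with no share of all genes given for that fit.

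Kcnj3 had 67.4, 63.6 and 93.6 CPM in Oxt neurons with tags KD, Q153R and Ctrl, against 525, 540 and 584 CPM in unclassed neurons. These were the lowest levels of any group, and no pool overlapped even the Avp class. The fall was 2.56 ± 0.19 on the log2 scale (adjusted p = 1.03e-12). Kcnj6, a second GIRK subunit gene, fell by 1.07 in Oxt neurons (adjusted p = 5.44e-06), averaging 90.7 ± 16.1 CPM there and 172 ± 10.7 CPM in unclassed neurons (SD, n = 3 pools each). The third tested GIRK gene, Kcnj9, was not called in any class. Kcnj12 fell by 2.14 ± 0.66 (adjusted p = 0.0199), opposite to its rise in Avp neurons.

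Of the 6 tested K2P genes, 3 fell, 1 rose and 2 were not called in Oxt neurons. Kcnk13, a K2P gene, stood at 3.74, 0 and 4.07 CPM in Oxt neurons with tags KD, Q153R and Ctrl, against 22.0, 23.5 and 21.8 CPM in unclassed neurons, and fell by 2.64 ± 0.61 on the log2 scale (adjusted p = 0.00183). Kcnk9, an acid-sensitive K2P gene, fell by 2.48 (adjusted p = 0.000862) and the mechanosensitive K2P gene Kcnk2 by 0.88 (adjusted p = 0.000533). Kcnk10, a close relative of Kcnk2, rose by 0.75 ± 0.16 (adjusted p = 0.000824), with 127 ± 19.1 CPM in Oxt neurons and 75.1 ± 6.42 CPM in unclassed neurons, a call that was lost without the Ctrl pool (adjusted p = 0.0897). Kcnip3, a KChIP gene that also acts as a transcriptional repressor, fell by 2.63 ± 0.61 in Oxt neurons (adjusted p = 0.00167). It had 3.74, 0 and 4.07 CPM there, against 21.7, 17.8 and 22.4 CPM in unclassed neurons. The Oxt sums held 267080, 267112 and 491492 UMIs with tags KD, Q153R and Ctrl. The Oxt levels of Kcnk13 and Kcnip3 thus rest on few UMIs.

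The rises in Oxt neurons were smaller. Kcnmb4 rose by 0.98 ± 0.19 on the log2 scale (adjusted p = 0.000176) and by 1.87 against unclassed neurons. Kcnip4 had 15572, 10767 and 11323 CPM in Oxt neurons with tags KD, Q153R and Ctrl, and rose by 0.48 ± 0.10 (adjusted p = 0.00078). That call rested on the KD pool, as its value without it was 0.22 (adjusted p = 0.195). Kcnab1, a beta subunit gene of Kv1 channels, rose by 0.86 (adjusted p = 0.0206) against the other 6 groups but stood at -0.00 against unclassed neurons, at 77.4 ± 5.68 CPM in Oxt and 75.7 ± 14.6 CPM in unclassed neurons, and its call was lost without the Q153R pool (adjusted p = 0.17). Kcna6, a Kv1 pore gene, rose by 0.64 (adjusted p = 0.0275), a call lost when any 1 pool was left out, with adjusted p of 0.0748, 0.0648 and 0.38 without KD, Q153R and Ctrl.

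Corticotropin-releasing hormone neurons showed the opposite balance, with 19 rises and 4 falls, or 51.1% of tested members, where 26.7% of all tested genes were called, 15.9% higher and 10.9% lower. The median log2 fold change was 0.29 over members and -0.03 over all genes tested. Against unclassed neurons alone 14 members rose and 7 fell, among them 13 of the 19 rises and all 4 falls, where 27.6% of all genes were called, 15.3% higher and 12.3% lower. Leaving out the Ctrl pool gave 13 calls and doubling the UMI minimums of the class rules 15, with no share of all genes given for either.

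Both tested Kv4 pore genes were highest in Crh neurons. Kcnd3 stood at 1117, 771 and 1158 CPM with tags KD, Q153R and Ctrl, against 303, 291 and 292 CPM in unclassed neurons, and rose by 1.77 ± 0.11 on the log2 scale (adjusted p = 1.27e-15). Kcnd2 stood at 6562, 5969 and 6662 CPM in Crh neurons, against 2816, 2819 and 2713 CPM in unclassed neurons, and rose by 1.26 ± 0.08 (adjusted p = 1.51e-14). No pool of another group reached the Crh values of either gene. The KChIP genes Kcnip1 and Kcnip4 rose by 0.80 and 0.36 (adjusted p = 1.59e-05 and 0.00909).

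Kcnj3, Kcnq3 and Kcnh1 were also raised in Crh neurons. Kcnj3 had 588, 707 and 1170 CPM with tags KD, Q153R and Ctrl, and rose by 1.65 ± 0.12 on the log2 scale against the other 6 groups (adjusted p = 3.14e-13), but by 0.75 against unclassed neurons (adjusted p = 0.000291). The low levels of Oxt and Avp neurons form part of the first contrast. Kcnq3 averaged 1478 ± 310 CPM in Crh neurons and 701 ± 54.0 CPM in unclassed neurons, a rise of 1.47 ± 0.10 (adjusted p = 1.52e-14). Kcnh1 averaged 704 ± 249 CPM against 208 ± 16.9 CPM, a rise of 1.47 ± 0.11 (adjusted p = 6.84e-13), which it shared with Avp neurons. Kcnf1, a silent subunit gene that modifies Kv2 channels, rose by 1.53 ± 0.34 (adjusted p = 0.000832), and Kcnj6 by 1.23 (adjusted p = 1.19e-09). Kcnn2, Kcnh5, Kcnk9, Kcnk13, Kcnj12 and Kcnc4 rose against the other 6 groups but were not called against unclassed neurons.

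Of the 4 falls in Crh neurons, the deepest was that of Kcnab1. Its level was 8.46, 0 and 20.2 CPM with tags KD, Q153R and Ctrl, against 87.7, 59.4 and 80.0 CPM in unclassed neurons. It fell by 2.21 ± 0.47 on the log2 scale (adjusted p = 0.000426). The Crh sums held 236372, 249108 and 346144 UMIs with the same tags, so its Crh levels rest on few UMIs. Kcnq5 fell by 1.67 ± 0.21 (adjusted p = 9.31e-08), so the Kv7 genes Kcnq3 and Kcnq5 went opposite ways here. Kcnh7, an ERG channel gene, fell by 1.04 ± 0.16 (adjusted p = 3.26e-06), and the sodium-activated channel gene Kcnt2 fell by 0.75. With doubled class minimums the values of Kcnab1 and Kcnq5 were -1.08 (adjusted p = 0.133) and -0.68 (adjusted p = 0.0633).

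Thyrotropin-releasing hormone neurons gave 12 rises and 4 falls, or 35.6% of tested members, where 12% of all tested genes were called, 7.48% higher and 4.5% lower. Doubling the class minimums gave 10 calls, with no share of all genes given for that setting. Against unclassed neurons alone 3 members were called, all higher, where 3.11% of all genes were called, 1.39% higher and 1.72% lower, and only Kcnk2 was called in both contrasts. Kcnk2 stood at 214, 248 and 243 CPM in Trh neurons with tags KD, Q153R and Ctrl, against 147, 165 and 165 CPM in unclassed neurons. Its rise was 0.90 ± 0.12 on the log2 scale against the other 6 groups (adjusted p = 5.69e-07) and 0.54 against unclassed neurons (adjusted p = 0.0143).

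The other 2 genes called against unclassed neurons were Kcnmb4 (0.97, adjusted p = 0.00168) and its overlapping antisense RNA Kcnmb4os2 (1.49, adjusted p = 0.0496). Kcnk13, Kcna1, Kcnk9 and Kcnh5 rose by 1.59, 1.48, 1.40 and 1.03 in Trh neurons against the other 6 groups. Their log2 values against unclassed neurons were 0.74, 0.43, 0.13 and 0.11, with adjusted p from 0.0709 to 0.93. Kcnh1, Kcnd3 and Kcnip4 fell by 1.08, 0.95 and 0.76 against the other 6 groups, and gave -0.29, -0.39 and -0.32 against unclassed neurons, with adjusted p from 0.206 to 0.5. The other groups include Avp neurons, where Kcnip4 and Kcnh1 stood highest, and Crh neurons, where Kcnd3 did.

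Somatostatin neurons had 6 rises and 7 falls, or 28.9% of tested members, where 10.6% of all tested genes were called, 6.27% higher and 4.33% lower. Against unclassed neurons alone 5 members rose and 12 fell, among them 4 of these rises and 3 of these falls, where 13.2% of all genes were called, 6.11% higher and 7.08% lower. Kcnh8, a gene for an ELK-type channel, stood at 136, 224 and 179 CPM in Sst neurons with tags KD, Q153R and Ctrl, against 85.8, 84.9 and 66.7 CPM in unclassed neurons. Its rise was 1.47 ± 0.24 on the log2 scale (adjusted p = 1.62e-05). Kcnf1 rose by 1.18 ± 0.30 (adjusted p = 0.00575), a call lost without the Q153R pool (adjusted p = 0.112). Kcnip1 rose by 0.86 ± 0.12 (adjusted p = 2.48e-06), with 766 ± 125 CPM in Sst neurons and 382 ± 42.6 CPM in unclassed neurons. Kcnb2, a Kv2 delayed rectifier gene, rose by 0.36 (adjusted p = 0.00841).

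Kcnd2 was lowest in Sst neurons. It had 1961, 1896 and 1906 CPM there with tags KD, Q153R and Ctrl, below every pool of the other groups, and fell by 0.97 ± 0.10 on the log2 scale (adjusted p = 2.47e-09) and by 0.54 against unclassed neurons. Kcnn2 fell by 1.09 ± 0.20 (adjusted p = 0.000137), with 117, 32.0 and 72.6 CPM in Sst neurons, a wide spread over the pools. With doubled class minimums its value was -0.70 (adjusted p = 0.113). Kcnq5 and Kcnc2 rose by 0.87 and 0.51 against the other 6 groups, but gave -0.16 and 0.13 against unclassed neurons (adjusted p = 0.666 and 0.696), and the call of Kcnc2 was lost without the Ctrl pool (adjusted p = 0.0528).

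GABA neurons gave 12 rises and 5 falls, or 37.8% of tested members, where 10.2% of all tested genes were called, 7.11% higher and 3.04% lower. Against unclassed neurons 3 members rose and 1 fell, where 1.95% of all genes were called, 1.09% higher and 0.859% lower. Auxiliary subunits made up all 4 of these. Kcnab1 stood at 156, 118 and 189 CPM in GABA neurons with tags KD, Q153R and Ctrl, against 87.7, 59.4 and 80.0 CPM in unclassed neurons, and rose by 2.11 ± 0.18 on the log2 scale against the other 6 groups (adjusted p = 8.97e-11) and by 1.07 against unclassed neurons (adjusted p = 0.000182). Kcnip3 had 45.9, 41.6 and 48.3 CPM, against 21.7, 17.8 and 22.4 CPM, and rose by 1.94 ± 0.25 (adjusted p = 3.66e-07). Both genes' GABA values lay above all pools of unclassed neurons. Kcnip3 was also high in the left-out nuclei with glial markers, at 143.5 CPM, and the 6 astrocyte markers summed to 84.1 CPM in GABA and 55.2 CPM in unclassed neurons. The highest single astrocyte marker gave 68.4 and 49.5 CPM of these sums. Oligodendrocyte, oligodendrocyte precursor and microglia markers summed to 44.1, 1.52 and 45.1 CPM in GABA neurons. In unclassed neurons they summed to 45.5, 1.48 and 53.8 CPM. The part of glial markers in the rise was not tested.

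Kcnmb2 rose by 0.78 (adjusted p = 0.000817) in GABA neurons and by 1.21 against unclassed neurons. Kcnmb4 stood at 16.4, 24.3 and 10.2 CPM in them with tags KD, Q153R and Ctrl, against 29.4, 29.4 and 30.7 CPM in unclassed neurons. It fell by 2.44 ± 0.25 (adjusted p = 3.38e-09) and by 1.07 against unclassed neurons (adjusted p = 0.0427). The 2 BK beta genes thus rose together in Avp neurons and went opposite ways in GABA neurons. Kcna1, Kcnn2 and Kcnk9 rose by 1.34, 1.16 and 1.15 against the other 6 groups, but gave 0.31, 0.18 and -0.09 against unclassed neurons, with adjusted p from 0.824 to 0.975. The call of Kcna1 was also lost without the KD pool (adjusted p = 0.0948) or the Ctrl pool (adjusted p = 0.178). The Sim1 content of the GABA class, uneven across pools, is given above, and its part in these values was not tested.

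**Figure D4:**
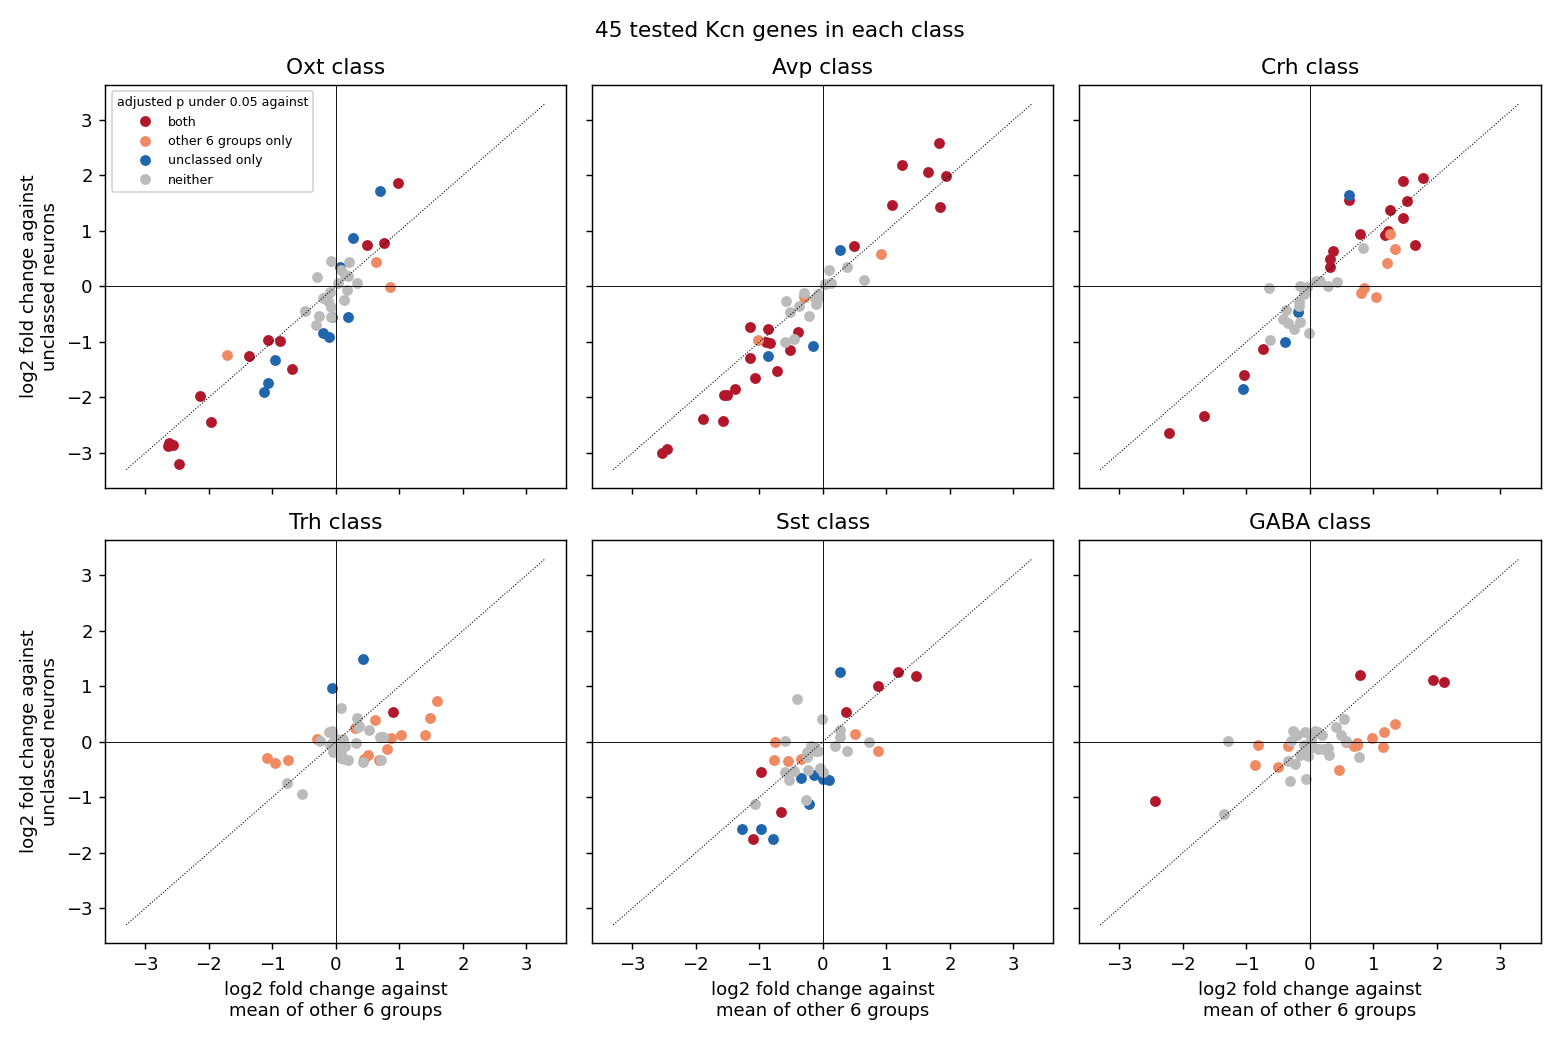
Log2 fold change of the 45 tested Kcn genes in each class against the mean of the other 6 groups (horizontal axis) and against unclassed neurons alone (vertical axis), coloured by which contrast gave an adjusted p under 0.05, with the line of equality dotted. Points follow the line in Avp neurons, while in Trh and GABA neurons most genes called on the horizontal axis lie closer to 0 on the vertical axis.

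Genes whose products bind potassium channels or work beside them were examined as a companion list of 38, of which 37 were in the file and 27 were tested. In Oxt neurons 5 rose and 4 fell, where 16.7% of all tested genes were called, and in Avp neurons 5 and 6, where 21.1% were. In Crh neurons 5 rose and 5 fell, where 26.7% of all genes were called, and in Trh neurons 6 and 1, where 12% were. In Sst neurons 3 rose and 7 fell, where 10.6% of all genes were called, and in GABA neurons 6 and 3, where 10.2% were. Against unclassed neurons 3 of these rises and 4 of these falls were called again in Oxt neurons, 4 and 4 in Avp, 4 and 4 in Crh, and 2 and 6 in Sst neurons. In Trh neurons 0 of these calls were made again, and in GABA neurons 0 of the rises and 1 of the falls were. Dpp6, a Kv4 auxiliary subunit gene, had 7713, 7720 and 6301 CPM in Oxt neurons with tags KD, Q153R and Ctrl, against 1819, 1973 and 1751 CPM in unclassed neurons, and rose by 1.63 ± 0.09 on the log2 scale (adjusted p = 9.04e-17). It also rose by 0.97 in Avp neurons (adjusted p = 1.05e-10). Its relative Dpp10 rose by 0.88 in Avp neurons (adjusted p = 4.69e-07) and fell by 1.04 in Crh neurons (adjusted p = 2.58e-06).

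Lrrc55, a BK gamma subunit gene, rose by 2.36 ± 0.40 in Oxt neurons (adjusted p = 2.77e-05), on 35 UMIs there. Cntnap2, which clusters Kv1 channels on axons, rose by 0.99 in Avp neurons (adjusted p = 5.17e-12) and fell by 0.42 in Oxt neurons (adjusted p = 0.000942). Cacna1g, a T-type calcium channel gene, fell by 1.98 in Avp neurons (adjusted p = 0.000125). Its rise of 0.70 in Trh neurons was absent against unclassed neurons (-0.19, adjusted p = 0.844), as was the rise of Scn1a by 1.27 in GABA neurons (0.34, adjusted p = 0.291). Fam155a, a subunit gene of the sodium leak channel, rose by 0.70 in Sst neurons (adjusted p = 9.3e-07) and fell by 1.46 in Avp neurons (adjusted p = 1.73e-12).

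Pools of different Otp genotype were compared over the neurons that did not meet the GABA rule, 1190 tagged KD, 1494 tagged Q153R and 1683 tagged Ctrl, with 7634364, 7561518 and 9717980 UMIs. Each genotype was 1 pool, so there is no replicate check and no test, and the 95% intervals cover counting error only. Nuclei with UMIs of Xist, an RNA of female cells, numbered 959 with tag KD, 704 with tag Q153R and 1135 with tag Ctrl. The mix of sexes may thus differ between pools together with genotype, and its part in the ratios was not tested. Few members moved far. Of 53 members with at least 100 UMIs over the KD and Ctrl pools, 1 was past 1.5-fold, upward, where 1.99% of 11174 genes were, 0.779% upward and 1.21% downward. In Q153R against Ctrl 1 of 54 members was, upward, where 1.52% of 11157 genes were, 0.583% upward and 0.941% downward. In Q153R against KD 1 of 53 members was, downward, where 2.11% of 10749 genes were, 1.13% upward and 0.977% downward. These shares are near the background. The first 2 comparisons share the Ctrl pool, so their values are given side by side and not as separate evidence.

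Kcnd3os, an RNA antisense to Kcnd3, stood at 9.69 CPM with tag KD and 6.28 CPM with tag Ctrl, a ratio of 1.54 (1.09 to 2.20) on 74 and 61 UMIs. Kcna5, a Kv1 pore gene, stood at 8.20 CPM with tag Q153R and 4.94 CPM with tag Ctrl, a ratio of 1.66 (1.12 to 2.47) on 62 and 48 UMIs. Both rest on few UMIs. Kcnab1 stood at 52.9 CPM with tag Q153R and 79.8 CPM with tag KD, a ratio of 0.663 (0.583 to 0.754). With tag Ctrl it stood at 67.5 CPM. Taken within the 7 neuron groups, the ratio of Q153R to KD was 0.677, inside the 1.5-fold limit. With 20 UMIs as the minimum, 5 of 73 members were past 1.5-fold in KD against Ctrl, where 8.1% of all genes were. In Q153R against Ctrl 6 of 71 were, where 8.01% of all genes were, and in Q153R against KD 7 of 69, where 8.79% were.

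Most members differed little between pools. Apart from the genes past 1.5-fold, the lowest ratio was that of Kcnj13, a Kir gene, at 0.700 in KD against Ctrl, and that of Kcnk12, a K2P gene, at 0.688 in Q153R against Ctrl. Median ratios over members were 1.06, 0.999 and 0.956 in these comparisons, against 0.965, 0.985 and 1.02 over all genes with as many UMIs. Kcnj3 stood at 477 CPM with tag KD and 552 CPM with tag Ctrl, a ratio of 0.864 (0.829 to 0.902). Kcnk2 had a ratio of 0.872 (0.806 to 0.942) in KD against Ctrl, and Kcnh1 one of 1.24 (1.17 to 1.31). For Q153R against Ctrl, Kcnk9 gave 0.763 (0.649 to 0.895), Kcnip3 0.765 (0.602 to 0.967), Kcnab1 0.784 (0.690 to 0.889) and Kcnj12 1.49 (1.13 to 1.97). Intervals of Kcnk1, Kcnk12, Kcnj12 and Kcnh6 in KD against Ctrl and of Kcnk12, Kcnd1, Kcna2, Kcnk13 and Kcnd3os in Q153R against Ctrl included 1.

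**Figure D5:**
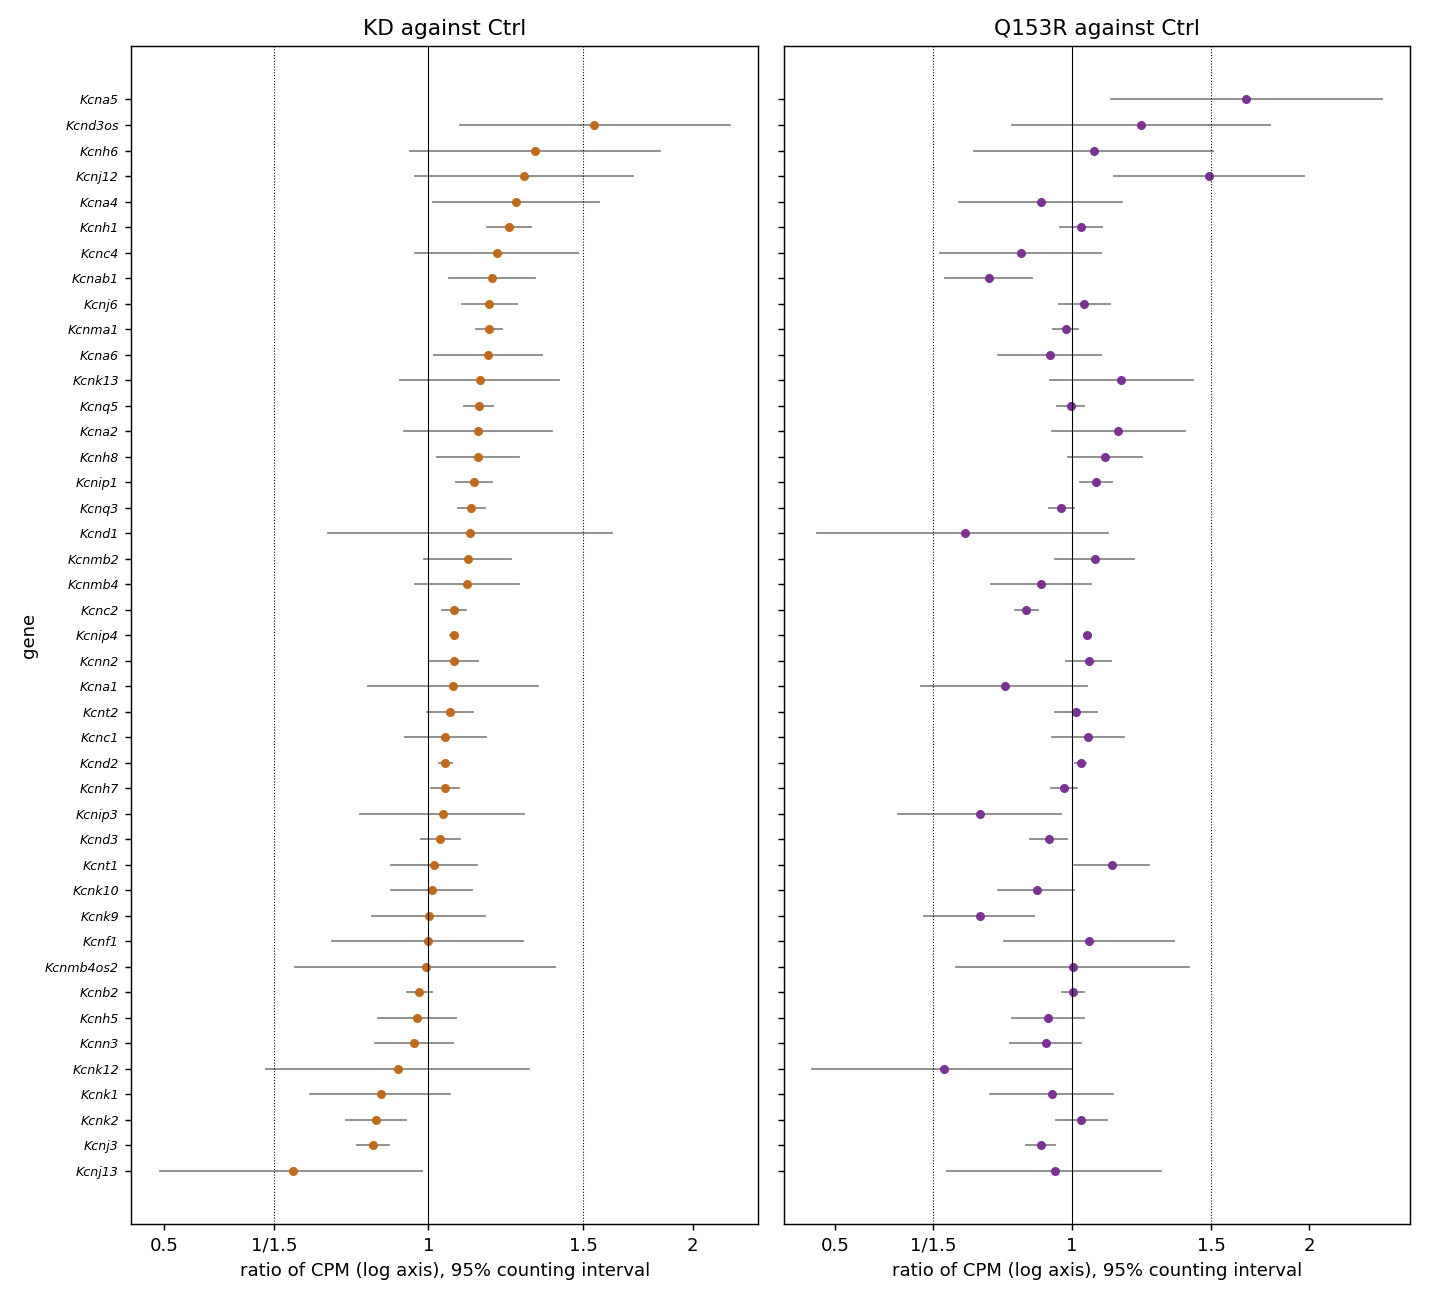
Ratio of CPM (log axis) for Kcn genes with at least 100 UMIs over both pools that were called in a class or named for their pool ratio or level, KD against Ctrl (left) and Q153R against Ctrl (right), with 95% counting intervals and dotted lines at 1.5-fold in either direction. Genes are ordered by the ratio on the left, with genes that had too few UMIs for it at the top. In each panel 1 gene is past 1.5-fold, Kcnd3os (1.54) on the left and Kcna5 (1.66) on the right.

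Within single classes the pools differed more, on fewer UMIs. In Crh neurons Kcnj3 stood at 588 CPM with tag KD and 707 CPM with tag Q153R, against 1170 CPM with tag Ctrl, ratios of 0.503 (0.411 to 0.611) and 0.604 (0.503 to 0.722). Of 14 members with 100 UMIs in that class, 3 were past 1.5-fold in KD against Ctrl and 4 in Q153R against Ctrl, where 13.7% and 15.4% of all genes were. Kcnh7 stood at 334 CPM with tag KD and 159 CPM with tag Ctrl in Crh neurons, a ratio of 2.10 (1.47 to 3.02). Kcnd3, Kcnq3 and Kcnn2 were past 1.5-fold lower with tag Q153R than with tag Ctrl there, at ratios of 0.665, 0.656 and 0.540. These sums hold 45, 60 and 72 nuclei with tags KD, Q153R and Ctrl. In Q153R against KD, 2 of 13 members were past 1.5-fold in Crh neurons, where 18.1% of all genes were, among them Kcnh1 at a ratio of 0.495 (0.394 to 0.620).

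In GABA neurons 4 of 27 members were past 1.5-fold in KD against Ctrl, where 5.79% of all genes were, 6 of 27 in Q153R against Ctrl, where 12.8% were, and 3 of 19 in Q153R against KD, where 10.4% were. Kcnh8 had the lowest ratio, at 31.2 CPM with tag Q153R and 119 CPM with tag Ctrl, or 0.263 (0.117 to 0.515) on 9 and 128 UMIs. Kcnc2 had the highest, at 1107 CPM with tag Q153R and 605 CPM with tag Ctrl, or 1.83 (1.59 to 2.09). Sim1 in the same nuclei stood at 302 CPM with tag Q153R and 45.5 CPM with tag Ctrl, and its part in these ratios was not tested. In KD against Ctrl 0 of 15 members were past 1.5-fold in Oxt neurons (8.77% of all genes), 3 of 18 in Avp (8.74%), 0 of 23 in Trh (6.58%) and 2 of 17 in Sst neurons (8.43%). In Q153R against Ctrl the counts were 3 of 14 in Oxt (6.93%), 0 of 18 in Avp (7.72%), 1 of 25 in Trh (5.7%) and 0 of 17 in Sst neurons (5.97%). In Q153R against KD they were 2 of 13 in Oxt (11.1%), 2 of 18 in Avp (8.34%), 0 of 22 in Trh (6.14%) and 2 of 17 in Sst neurons (7.8%). In Oxt neurons Kcnq5 stood at 150 CPM with tag Q153R, against 374 CPM with tag KD and 256 CPM with tag Ctrl. In Avp neurons Kcnip4 had ratios of 0.914 (0.892 to 0.938) in KD against Ctrl. Its level was nearly equal with tags Q153R and Ctrl, as given above. Kcnq5 there stood at 174 CPM with tag KD and 330 CPM with tag Ctrl, a ratio of 0.527 (0.390 to 0.706). Among unclassed neurons, the largest group, 0 of 49 members were past 1.5-fold in KD against Ctrl, where 2.12% of all genes were, 1 of 46, Kcnj12, in Q153R against Ctrl, where 1.81% were, and 1 of 46, Kcna1, in Q153R against KD, where 2.47% were.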

How the data were processed

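The deposited matrix of 1 pooled droplet library holds raw counts of UMIs for each barcode, over 31053 genes and 3 hashtags, per the file headers and values. Cell Ranger made it, in version 6.0.0 with build mm10 per the submitters' processing notes and in version 7.0.0 per the file headers. Which annotation was counted, whether strand and introns were used and how cells were called is not given in the sources used here. The hashtag library had no file of its own here.

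Of 6173 barcodes, 6157 had at least 500 genes and under 5% mitochondrial UMIs. Exactly 1 tag was found on 4904, more than 1 on 1124, which were left out as doublets between pools, and none on 129. Doublets within a pool were not called, and an upper limit of 2 times the median UMI count was tried in place. A further 174 nuclei with more glial than neuronal marker UMIs were left out. Another 81 that met several class rules were left out of the 7 neuron groups. The pool ratios over all neurons outside the GABA rule kept those of the 81 that did not meet that rule. CPM are UMIs scaled to 1000000 gene UMIs. UMI sums of 7 neuron groups in 3 pools (21 sums) were tested with edgeR 4.0.16 in R 4.3.3 (TMM, filterByExpr, quasi-likelihood, pool as a block, threshold 0.05 after Benjamini-Hochberg adjustment over 7915 genes), checked on simulated counts. The contrast sets a class against the unweighted mean of the other 6 groups. Pool ratios have exact conditional binomial intervals, and Poisson and binomial intervals at 95% cover counting error only. Alternatives included DESeq2 1.42.0, other size factors, no filter, no block, leaving out each pool and other class rules.

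Gene coordinates came from GENCODE release M21 (GRCm38), which held 31011 of the gene IDs, and promoters from RefSeq. Named members are, per class, the 5 largest rises and 3 largest falls among calls with at least 50 UMIs and 1 direction in 3 pools, per pool comparison the 5 lowest and 5 highest ratios, the member with most UMIs in each family, and the companion with the largest rise. Others were named after their values were seen. The members, lists and rules were chosen with earlier results of these data known. Some results that these rules select are not reported here.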

Additional observations from a re-analysis of the deposited data

Results flagged for a closer look

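In the 174 nuclei left out of the neurons for their glial markers, 4 members with at least 10 UMIs stood above their level in neurons with an interval of the ratio wholly above 2. Other members were also higher there with intervals above 1, at lower ratios or on fewer UMIs. Among those with UMIs in neurons, ratios ran from Kcnd2 at 1.28 (1.22 to 1.34) to Kcnrg at 10.1 (4.07 to 21.8) on 8 UMIs. Kcne1l had 1 UMI in the left-out nuclei and 0 in neurons. These nuclei hold 529548 UMIs with a median of 2506, and no class test or pool ratio reported above uses them. Kcnj10, the inward rectifier gene known from glia, stood at 98.2 CPM in them and 0.675 CPM in neurons, a ratio of 145 (83.7 to 264) on 52 UMIs in 40 nuclei. Kcnj16, whose product pairs with that of Kcnj10, stood at 58.5 CPM in them and 0.450 CPM in neurons, a ratio of 130 (64.9 to 278). Kcnip3 stood at 143.5 CPM in these nuclei on 76 UMIs, against 560 UMIs in all neurons, a ratio of CPM of 6.83 (5.30 to 8.70). Kcna1 stood at 64.2 CPM in them and 18.5 CPM in neurons, a ratio of 3.47 (2.37 to 4.91). Intervals are 95% and cover counting error only. Kcnip3 and Kcna1 were among the 12 members that rose in GABA neurons, where astrocyte markers summed to 84.1 CPM, the highest of the neuron groups. The highest single astrocyte marker gave 68.4 CPM of that sum in GABA neurons. Oligodendrocyte, oligodendrocyte precursor and microglia markers summed to 44.1, 1.52 and 45.1 CPM there, against 45.5, 1.48 and 53.8 CPM in unclassed neurons. The part of any of these markers in the rises was not tested.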

How the results depend on the processing

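Named class and pool results kept direction and side of the threshold in 543 of 586 recalculations, lost the call in 40 and changed sign in 3. The named results were picked for their size in these data, so this count does not measure how well all calls held. Against unclassed neurons alone, 31 of 48 named class results kept the call, 14 lost it and 3 changed sign. The 3 sign changes came against unclassed neurons alone: Kcnab1 in Oxt neurons (-0.0025), Kcnq5 in Sst neurons (-0.16) and Kcnk9 in GABA neurons (-0.087). That contrast, added after the data were seen, also gave 3 calls in Trh and 4 in GABA neurons, in place of 16 and 17. By construction it sets the other 5 classes aside. Doubled class minimums gave 15 calls in Crh and 10 in Trh neurons. That setting covered 41 of the 48 named class results, of which 34 kept the call and 7 lost it. Leaving out 1 pool gave 10 to 12 calls in Oxt, 16 to 22 in Avp, 13 to 25 in Crh, 14 to 15 in Trh, 9 to 13 in Sst and 13 to 18 in GABA neurons. DESeq2, DESeq2 size factors, no filter, no pool block, glial-marker nuclei kept, shared classes and an upper UMI limit left every count of calls within 1.5 times. Apart from the contrast with unclassed neurons, the shares of all genes called under these settings are not given here. Changes in these counts are thus not set apart from changes over all genes.

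Members past 1.5-fold with at least 20 UMIs were 5 of 73 in KD against Ctrl (8.1% of all genes), 6 of 71 in Q153R against Ctrl (8.01%) and 7 of 69 in Q153R against KD (8.79%). In Q153R against Ctrl, GABA nuclei included gave 3 of 54, where 1.84% of all genes were past 1.5-fold. Nuclei with Xist UMIs alone gave 0 of 45 (2.08% of all genes), and median scaling 2 of 54 (1.54%). Kcna5 was not among the 45 members with enough UMIs in nuclei with Xist UMIs, so its ratio was not assessed there. In Q153R against KD, Mantel-Haenszel ratios within groups gave 0 of 53 (2.05% of all genes) and higher tag minimums 0 of 54 (2.09%). Nuclei with Xist UMIs alone gave 1 of 45 there, Kcna4 in place of Kcnab1 (0.675), where 2.53% of all genes were past 1.5-fold. The cause was not tested. The pools, which all classes share, were a block in the class tests. Without it the calls were 15 in Oxt, 24 in Avp, 22 in Crh, 15 in Trh, 11 in Sst and 16 in GABA neurons. The share of all genes called without the block is not given here. No paired analysis was possible because the labels give no replicate numbers, beyond that pool block. Depth limits the 54 untested members and all ratios within classes.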
